A study of Mus musculus with 8 samples.

Results

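The response of wild-type cells to an antibody against CD40 was described here, from all genes of 4 of the 8 libraries in the study. The 4 libraries were 2 labelled WT activated and 2 labelled WT resting, and each of the 10412 genes in the count table was considered, 8616 of them with enough counts to be tested. Bulk MARS-seq was used, a 3′ sequencing method in which every captured polyadenylated RNA molecule carries a unique molecular identifier (UMI), so that molecules rather than reads are counted. Per the labels, the WT samples came from bone marrow chimeras marked WT/WT on the C57BL/6 background, and the mice were 16 weeks old and 8 weeks past the transplant (BMT). Activated mice had received 10 µg of antibody to CD40 into the footpad and resting mice nothing, so that no injection control was part of the contrast. Cells were sorted from popliteal lymph nodes on CD45, CD11c and MHC-II, and the labels name them classical dendritic cells (DCs). The other 4 libraries came from ICAM-1/2 DKO/WT chimeras, resting or activated in the same manner, and served for the spread of the fit and for 1 comparison near the end. The sources used here state neither the interval between injection and sorting nor whether libraries of a group came from separate animals. The p-values therefore measure only the spread between these libraries, which may be technical, and replicate numbers are names without order.

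The label of the cells was checked against marker genes before the results. Levels are in CPM, UMI counts relative to a library total that was scaled by TMM. TMM is a method that sets the bulk of genes equal between libraries, and it leaves the summed CPM unequal. All genes summed to 909631 and 951527 CPM in resting and to 1.07e+06 and 1.12e+06 CPM in activated libraries. The sum of a gene list in CPM can therefore move differently from its share of all UMIs. A 3′ UMI count needs no correction for gene length. MHC class II genes were abundant, with H2-Aa at 10903 and 12636 CPM in resting replicates 1 and 2 and at 11773 and 11890 CPM in activated replicates 1 and 2. Itgax, which encodes the sort marker CD11c, was at 30.2, 28.1, 27.4 and 18.3 CPM in the same order. Zbtb46, a transcription factor that defines classical DCs, had 2, 1, 4 and 6 UMIs and was not tested. Flt3, the receptor of the DC growth factor FLT3L, was at 30.9, 4.01, 27.4 and 11 CPM, and Xcr1, a receptor of cDC1 cells, had 8, 2, 5 and 1 UMIs. B cell genes stood far above these levels, with the antigen receptor chain Cd79b at 3627, 3747, 2741 and 2787 CPM. The 25 B cell genes in the table summed to 16574 and 17555 CPM in resting and to 15293 and 15726 CPM in activated libraries. The 26 T cell genes summed to 3888 and 4379 CPM in resting and to 1878 and 3033 CPM in activated libraries, and the 27 monocyte and macrophage genes to 3637 and 3284 CPM and to 7602 and 6889 CPM. The 20 classical DC genes, which include MHC class II chains shared with B cells, summed to 42973, 46648, 43896 and 44301 CPM, the 22 cDC2 genes to 3360, 3912, 3552 and 4033 CPM and the 13 cDC1 genes to 1883, 1651, 1754 and 1769 CPM. Zbtb46 and Xcr1 were thus near the detection floor of 2.11 to 4.01 CPM and Itgax above it, while B cell genes were abundant. That abundance goes against a label of DCs alone, and the material is called sorted cells in what follows. In such bulk libraries, fewer cells of a type and less RNA per cell cannot be told apart. That holds for every gene group given here, and the part of a changed cell mix in each result was not tested.

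CD40 is a receptor of the TNF receptor family carried by B cells, DCs and macrophages, and helper T cells engage it through CD40 ligand. Its tail recruits TRAF adaptors that start the NF-kB pathways, which induce their own inhibitors, survival proteins, adhesion molecules and chemokines. In antigen-presenting cells the receptor is known for raising costimulation and cytokine output and, in B cells, for driving growth and entry into the cell cycle. Interferons, in contrast, signal through JAK kinases and STAT factors to genes whose promoters hold an interferon-stimulated response element (ISRE).

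The table of counts was changed broadly in both directions. A gene is referred to as called, and as having risen or fallen, where the adjusted p of edgeR's quasi-likelihood test was under 0.05. Of the 8616 tested genes 1237 (14.4%) were called, and 2442 had an unadjusted p under 0.05. The activated libraries were higher for 727 genes (8.44%) and lower for 510 (5.92%). At least 2-fold changes made up 738 of the calls (8.57% of tested genes), with 391 higher and 347 lower. Changes of 4-fold or more were found for 92 genes higher and 61 lower, and of 8-fold or more for 26 and 11. The median size of a called rise was 1.05 on the log2 scale and that of a called fall 1.1. Both activated libraries lay above both resting libraries for 29.3% of tested genes and below both for 29.9%. Of the 1237 called genes 1236 had groups that did not overlap, which is no separate support, as the calls rest on these same libraries. The 2 libraries of a group differed by a median of 0.24 on the log2 scale in both resting and activated cells.

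The direction of the balance depended on scaling. RNA of the activated libraries was more concentrated in few genes, the 50 most abundant of which held 25.3% and 27.0% of UMIs against 19.5% and 22% at rest. With plain library totals in place of TMM, an alternative added after seeing the data, all changes shifted by a median of −0.24. Under it 1419 genes were called, 418 higher and 1001 lower, so that 29.5% of calls were rises against 58.8% in the TMM fit. A total of 928 genes were called under both scalings, and 0 of them with opposite signs. The 4 WT libraries held 1294777 and 711254 UMIs at rest and 822287 and 914623 UMIs after activation. Between 10169 and 10369 genes were detected in them. The floor of 3 UMIs corresponded to 2.11 to 4.01 CPM. Without resting replicate 1, resting replicate 2, activated replicate 1 or activated replicate 2, 504, 748, 571 and 529 genes were called, and with DESeq2 806. In what follows, 4 counts in square brackets after a count of called genes give that count with these 4 libraries left out in this order. Counts of called list members are to be read against the shares of all tested genes, 8.44% higher and 5.92% lower.

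**Figure D1:**
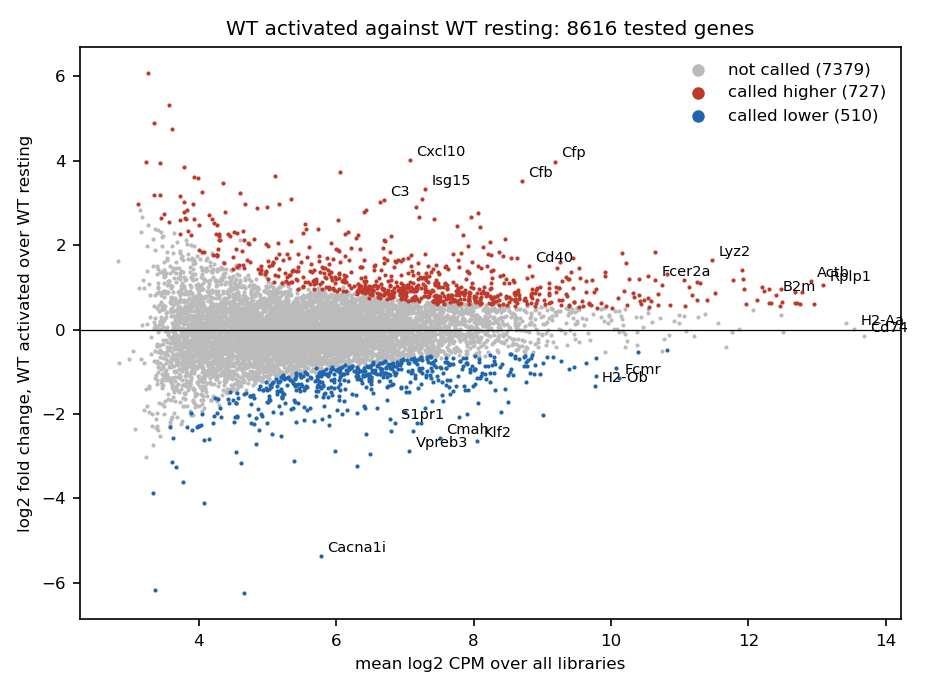
Log2 fold change (WT activated over WT resting) against the mean log2 CPM over all libraries, with each tested gene as a point; red marks the 727 genes called higher and blue the 510 called lower. The complement genes Cfp and Cfb stand out among abundant genes that rose, and the MHC class II genes H2-Aa and Cd74 lie near 0.

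Among genes whose mean log2 CPM reached 5, the 12 largest rises included chemokines, complement factors and interferon-stimulated genes, and the 12 largest falls included Cacna1i, Fos, Vpreb3 and Klf2. Cxcl10, a chemokine that attracts CXCR3-bearing T cells (ENSMUSG00000034855.13, mm10 chromosome 5, 92346638 to 92348889), went from 20.4 and 6.69 CPM to 181 and 313 CPM. That is a change of 4.02 ± 0.42 (log2 ± SE, adjusted p = 4.88e-08), and the groups did not overlap. Cfp, which encodes properdin, the stabiliser of the alternative complement convertase (ENSMUSG00000001128.7, chromosome X, 20925454 to 20931555), went from 64.6 and 53.5 CPM to 1001 and 895 CPM. It had the smallest p of all genes, with a change of 3.98 ± 0.23 (adjusted p = 1.01e-13). Cfb, the protease of the same convertase (ENSMUSG00000090231.10, chromosome 17, 34856374 to 34862518), went from 44.3 and 29.4 to 508 and 369 CPM, a change of 3.52 ± 0.24 (adjusted p = 1.14e-11). The other large rises were in Ccl12 at 3.64 ± 0.48, Isg15 at 3.33 ± 0.40, Cdk5r1, which encodes an activator of the kinase CDK5, at 3.10 ± 0.41, Cxcl9 at 3.08 ± 0.34, C3 at 3.07 ± 0.31, the cytokine receptor Il9r at 3.02 ± 0.33 and Ifit1 at 2.97 ± 0.49. Cxcl9 was uneven at rest, with 43.6 and 6.69 CPM, and its change was 5.14 without resting replicate 1. Rpl35, a ribosomal protein gene, was listed among these by its fitted change of 3.73 ± 0.57, but its levels of 12.6, 14.7, 33.9 and 325 CPM show that activated replicate 2 set it. Without that library its change was 1.32 and was not called (adjusted p = 0.185).

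Among the falls, Cacna1i, a T-type calcium channel subunit (ENSMUSG00000022416.15, chromosome 15, 80287238 to 80398279), went from 134 and 55 UMIs at rest to 1 and 2 UMIs after activation. The depth-scaled ratio of resting to activated counts was 46.0, with an exact 95% interval of 15.5 to 225 that covers counting error only. Vpreb3, a protein of B cell receptor assembly (ENSMUSG00000000903.3, chromosome 10, 75943057 to 75949657), went from 226 and 211 CPM to 30.0 and 29.3 CPM, a change of −2.88 ± 0.26 (adjusted p = 9.64e-09). Klf2, a transcription factor of lymphocyte quiescence (ENSMUSG00000055148.7, chromosome 8, 72319033 to 72321656), went from 511 and 381 CPM to 86.0 and 57.5 CPM, a change of −2.65 ± 0.25 (adjusted p = 1.24e-08). Cmah, the hydroxylase that converts N-acetyl- to N-glycolylneuraminic acid (ENSMUSG00000016756.17, chromosome 13, 24327404 to 24477377), went from 308 and 289 CPM to 43.0 and 57.5 CPM, a change of −2.56 ± 0.24 (adjusted p = 1.24e-08). For each of these genes both activated libraries were well below both resting libraries. Fcgrt, the neonatal Fc receptor, fell by 3.12 ± 0.44, Mylip, a ubiquitin ligase of the LDL receptor, by 2.95 ± 0.32, the glycosyltransferase B3gnt8 by 2.88 ± 0.37, the carnosine synthase Carns1 by 2.48 ± 0.32, the exchange factor Rapgef4 by 2.48 ± 0.47 and the phosphatase Cdc25b by 2.52 ± 0.48. Cd55, which dissociates complement convertases, fell by 2.40 ± 0.32. The immediate early gene Fos was at 311 and 45.5 CPM at rest and at 23.5 and 15.9 CPM after activation, a change of −3.23 ± 0.51. Without resting replicate 1 its change was −1.22 and not called (adjusted p = 0.162).

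**Figure D2:**
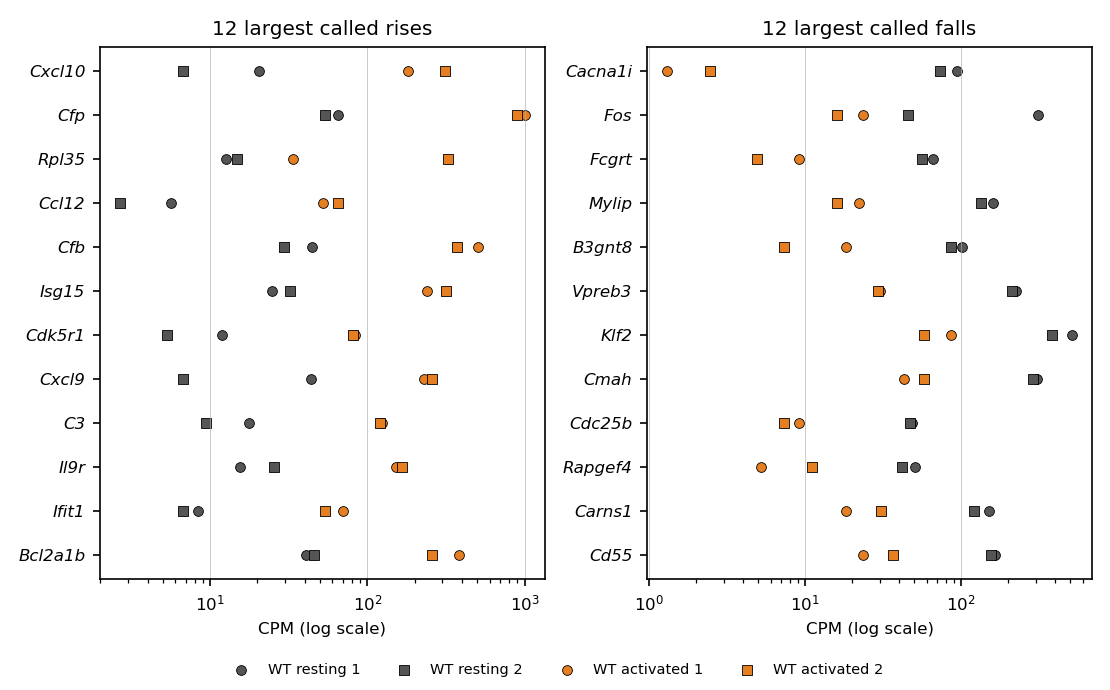
Level (CPM, log scale) in each of the 4 WT libraries for the 12 largest called rises and the 12 largest called falls among genes whose mean log2 CPM reached 5; grey marks resting and orange activated libraries, circles replicate 1 and squares replicate 2. The groups are apart in each row, and the wide gap between the activated points of Rpl35 and between the resting points of Fos shows that a single library sets the size there.

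Some genes were detected almost only in activated or only in resting libraries. Of the called genes 16 were at or under 3 UMIs in both resting libraries and 12 in both activated libraries. The chemokine Ccl7 had 1 and 0 UMIs at rest and 15 and 24 UMIs after activation, a depth-scaled ratio of 53.4 (exact 95% interval 9.04 to 2163). Clec4e, the glycolipid receptor Mincle, had 1 and 0 UMIs at rest and 14 and 12 after activation, a ratio of 35.6 (5.85 to 1460). The transcription factor Snai1 stood at 3 and 1 against 24 and 21 UMIs (ratio 15.4, 5.62 to 59.0), and the guanine deaminase Gda at 3 and 1 against 14 and 24 UMIs (ratio 13.0, 4.68 to 50.2). In the opposite direction Stac2 went from 34 and 19 UMIs to 1 and 1, a resting to activated ratio of 19.3 (5.10 to 164), and the lipid exporter Abca1 from 43 and 31 UMIs to 3 and 3, a ratio of 9.01 (3.95 to 25.3). The sphingosine 1-phosphate transporter Spns2 had 32 and 8 UMIs at rest and 1 and 1 after activation, and its call ended without resting replicate 1 (adjusted p = 0.175), activated replicate 1 (0.0698) or activated replicate 2 (0.0818). Intervals of these ratios hold for counting error and not for the spread between libraries.

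The receptor that the antibody binds rose, as did Traf1, Nfkb2, Nfkbie and Nfkbia, each of which kept its call in all 11 alternatives. Cd40 (ENSMUSG00000017652.16, chromosome 2, 165055627 to 165072948) was at 233 and 252 CPM at rest and at 670 and 693 CPM after activation, a 2.82-fold change of 1.49 ± 0.19 on the log2 scale (adjusted p = 1.07e-06). Of 32 tested genes of CD40 and NF-kB signalling 7 rose [6, 5, 5, 5] and 1 fell [0, 1, 1, 0], with a median change of −0.12 against −0.02 over all tested genes. With library totals the same list held 6 rises and 8 falls. The members that rose were Cd40, the adaptor Traf1, the precursor of the p52 subunit Nfkb2, 4 inhibitors of the pathway by their textbook roles (Nfkbia, Nfkbib, Nfkbie and Tnfaip3). Nfkbib (0.68, adjusted p = 0.0270) lost its call without any 1 of the 4 libraries (adjusted p from 0.0781 to 0.240), with DESeq2 (0.0543) and under library totals (0.140). Tnfaip3 (1.11, adjusted p = 0.00945) lost it without resting replicate 2 (0.171), activated replicate 1 (0.0856) or activated replicate 2 (0.0629). Traf1 went from 154 and 118 to 507 and 451 CPM (1.8 ± 0.22, adjusted p = 6.49e-07). Nfkbie went from 164 and 132 to 442 and 386 CPM (1.47 ± 0.21, adjusted p = 9.08e-06) and Nfkb2 from 375 and 367 to 876 and 870 CPM (1.23 ± 0.18, adjusted p = 1.11e-05). Nfkbia, which encodes IkBα, went from 337 and 353 to 701 and 671 CPM (0.99 ± 0.19, adjusted p = 4.46e-04).

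The promoter of Nfkbia is shown because its gene is the best known target of the pathway, and a match to the NF-kB site lies beside its start. All promoters printed here are RefSeq sequences of GRCm38.p6 (mm10), 5′ to 3′ on the strand of the gene, from 250 bases before the transcription start to 50 bases after it. Capitals mark matches to the named motif, which was searched on both strands. This is chr12:55492598-55492897 on the minus strand, with the match to the NF-kB motif (GGG and TTTCC spaced by any 2 bases) on the opposite strand beginning 29 bases before the start:
Nfkbia: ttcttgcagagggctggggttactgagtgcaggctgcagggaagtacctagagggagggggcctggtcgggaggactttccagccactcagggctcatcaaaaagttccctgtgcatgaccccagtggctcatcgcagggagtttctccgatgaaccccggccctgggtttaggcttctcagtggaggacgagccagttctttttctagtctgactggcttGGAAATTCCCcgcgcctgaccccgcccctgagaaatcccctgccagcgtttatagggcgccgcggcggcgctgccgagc
Of 37 promoters of the CD40 and NF-kB list 24.3% held this motif, against 1.8% of 8510 promoters of tested genes, 3.64% of those of genes called higher and 1.12% of those of genes called lower. A match describes letters and is no proof of binding.

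Genes of the BCL-2 family moved in a few members. Of 25 tested genes of survival and cell death 4 rose [3, 3, 4, 3] and 1 fell [0, 0, 0, 0], with a median of 0.39. Bid, a BH3-only protein cleaved by caspase-8, went from 57.6 and 42.8 CPM to 321 and 311 CPM (2.62 ± 0.25, adjusted p = 1.26e-08). The anti-apoptotic Bcl2a1b went from 40.7 and 45.5 to 382 and 258 CPM (2.90 ± 0.28) and Bcl2a1d from 9.13 and 8.03 to 52.1 and 36.7 CPM (2.33 ± 0.48, adjusted p = 8.80e-04). These paralogs are near-identical and can share reads, so that their separate values are uncertain.

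Interferon-stimulated genes rose as a broad group. Of 56 tested genes of the type I interferon response 33 rose [21, 22, 27, 20] and 0 fell, 55 had a positive change, and the median change was 1.43 against −0.02 over all tested genes. With library totals 26 rose and 1 fell. Isg15, a ubiquitin-like protein that is joined to other proteins (ENSMUSG00000035692.6, chromosome 4, 156199424 to 156200818), went from 24.6 and 32.1 CPM to 241 and 315 CPM (adjusted p = 6.59e-07). Ifi27l2a, a small mitochondrial protein, was at 562 and 1001 CPM at rest and at 2731 and 2797 CPM after activation (1.83 ± 0.23, adjusted p = 8.06e-07). Rtp4 rose by 2.67 ± 0.32, the nucleic acid sensor Zbp1 by 2.23 ± 0.30 and the ubiquitin ligase Trim30a by 1.78 ± 0.22. The 57 genes of this list present in the table took 0.513% and 0.529% of all UMIs in resting libraries and 0.971% and 1.11% in activated libraries.

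Of 15 tested interferon-inducible GTPases, which attack the vacuoles of intracellular pathogens, 10 rose [11, 7, 8, 8] and 0 fell, with a median of 1.35. Ifi47 went from 223 and 158 to 553 and 697 CPM (1.70 ± 0.22, adjusted p = 2.61e-06), Irgm1 rose by 1.5 ± 0.24 and Gbp7 by 1.35 ± 0.26. Gbp2 (ENSMUSG00000028270.12, chromosome 3, 142620602 to 142638008) went from 79.4 and 38.8 to 218 and 214 CPM (1.8 ± 0.31, adjusted p = 1.08e-04). Iigp1 was uneven at rest, at 23.9 and 5.35 CPM, and stood at 84.7 and 78.2 CPM after activation. Its change was 2.30 ± 0.41, and 3.87 without resting replicate 1.

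Among upstream genes of the interferon pathway the shares called were near those of all tested genes (8.44% higher, 5.92% lower). Of 28 tested receptors, kinases, STATs, IRFs and feedback genes 3 rose [4, 3, 3, 3] and 2 fell [0, 2, 0, 1], with a median of 0.03 that was −0.21 under library totals and also turned sign without activated replicate 2. The rises included genes that are themselves interferon-inducible. Irf7, the factor that amplifies type I interferon, went from 82.2 and 100.3 to 357 and 351 CPM (1.97 ± 0.26, adjusted p = 3.25e-06). Usp18, a protease that removes ISG15, rose by 2.26 ± 0.36. Ifng, the cytokine interferon gamma, had a change of 0.64 and was not called.

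The next 3 promoters are printed to show the ISRE, searched on both strands as a GAAA followed after any 2 bases by another GAAA, in genes of this response that rose. Isg15 (chr4:156200769-156201068, minus strand) holds 3 overlapping matches that begin 78, 72 and 66 bases before the start. Cxcl10 (chr5:92348840-92349139, minus strand) holds 1 match 213 bases before the start, and Gbp2 (chr3:142620413-142620712, plus strand) holds 1 on the opposite strand, 59 bases before the start:
Isg15: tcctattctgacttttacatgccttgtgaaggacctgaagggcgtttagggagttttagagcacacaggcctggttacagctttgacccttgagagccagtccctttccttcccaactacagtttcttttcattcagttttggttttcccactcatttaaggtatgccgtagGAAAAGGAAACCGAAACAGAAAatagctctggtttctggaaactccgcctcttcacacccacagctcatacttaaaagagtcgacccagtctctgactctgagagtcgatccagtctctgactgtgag
Cxcl10: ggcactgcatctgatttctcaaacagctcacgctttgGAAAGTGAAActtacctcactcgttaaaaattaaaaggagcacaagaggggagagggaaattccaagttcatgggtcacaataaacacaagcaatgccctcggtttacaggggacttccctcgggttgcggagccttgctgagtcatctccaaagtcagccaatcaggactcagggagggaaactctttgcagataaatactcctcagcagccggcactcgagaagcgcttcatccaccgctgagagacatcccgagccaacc
Gbp2: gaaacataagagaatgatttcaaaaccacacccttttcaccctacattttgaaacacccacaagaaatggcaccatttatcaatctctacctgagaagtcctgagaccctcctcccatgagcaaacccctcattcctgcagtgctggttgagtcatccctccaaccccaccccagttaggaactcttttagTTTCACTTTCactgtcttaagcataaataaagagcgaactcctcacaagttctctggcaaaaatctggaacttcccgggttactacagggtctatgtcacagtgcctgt
Of 54 promoters of the type I interferon list 42.6% held the motif, and of 12 promoters of the GTPase list 75.0%, against 3.42% of 8510 promoters of tested genes. Among called genes, it was in 7.14% of 686 promoters of those higher and in 2.05% of 536 promoters of those lower.

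Class I and class II presentation are given in turn. Of 20 tested genes of MHC class I presentation and the immunoproteasome 10 rose [7, 6, 6, 4] and 0 fell, with a median of 0.56; with library totals 5 rose and 1 fell. Psmb10, a catalytic subunit of the immunoproteasome, went from 485 and 423 to 971 and 1166 CPM (1.23 ± 0.18, adjusted p = 1.28e-05) and its companion Psmb9 from 601 and 428 to 1052 and 1254 CPM (1.16 ± 0.20, adjusted p = 1.64e-04). The proteasome activator subunit Psme2 rose by 1.52 ± 0.23. B2m, the light chain of class I, went from 4176 and 4253 to 7856 and 6901 CPM (0.81 ± 0.18, adjusted p = 0.00167), a call lost without activated replicate 1 (0.71, adjusted p = 0.0529). The class I heavy chains H2-K1 and H2-D1 stood at 0.15 and 0.01 and were not called.

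Of 24 tested genes of MHC class II presentation 3 rose [2, 2, 2, 2] and 2 fell [2, 3, 1, 2], with a median of −0.07, and under library totals 2 rose and 7 fell. In the TMM fit 12.5% of the list rose and 8.33% fell, near the 8.44% and 5.92% of all tested genes. The list summed to 49001 and 52781 CPM at rest and to 50919 and 52310 CPM after activation. The chains themselves were not called, with H2-Aa at 0.01 ± 0.15, H2-Ab1 at 0.15 ± 0.15 and the invariant chain Cd74 at −0.15 ± 0.15 (adjusted p of 0.981, 0.577 and 0.566). Under library totals Cd74 was called lower (−0.39, adjusted p = 0.0237). H2-Ob, whose product tempers peptide loading onto class II in B cells, went from 1205 and 1244 CPM to 484 and 484 CPM (−1.34 ± 0.19, adjusted p = 5.65e-06). The lysosomal thiol reductase Ifi30 went from 945 and 831 to 2091 and 2175 CPM (1.26 ± 0.17, adjusted p = 4.49e-06), and cathepsin Z (Ctsz) rose by 1.16 ± 0.18.

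Costimulatory genes were mixed. Of 24 tested costimulatory and coinhibitory molecules 5 rose [4, 2, 3, 2] and 2 fell [2, 2, 1, 2], and the median of 0.04 turned sign in 4 of 11 alternatives, to −0.20 under library totals. Cd86, the ligand of CD28, stood at 0.63 and was not called, and Cd80 was not analysed here. Lilrb4a, an inhibitory receptor of myeloid cells, went from 28.1 and 8.03 to 117 and 160 CPM (2.78 ± 0.39, adjusted p = 5.65e-06). Cd83, a surface protein of mature antigen-presenting cells, went from 320 and 278 to 560 and 535 CPM (0.87 ± 0.20, adjusted p = 0.00305), with an adjusted p of 0.0561 without resting replicate 2. Cd24a went from 211 and 187 to 63.9 and 78.2 CPM (−1.49 ± 0.29, adjusted p = 5.07e-04). Of 33 tested genes of migratory and mature DCs 6 rose [4, 3, 5, 5] and 3 fell [1, 3, 2, 2], and the median of 0.19 was −0.06 under library totals and −0.083 without resting replicate 2. Marcksl1, an actin-binding protein, went from 136 and 103 to 515 and 421 CPM (1.95 ± 0.22, adjusted p = 1.29e-07).

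Chemokine genes were among the groups with the highest share of rises. Of 15 tested chemokines 9 rose [7, 8, 8, 8] and 2 fell [1, 1, 2, 1], with a median of 2.23. Besides Cxcl9, Cxcl10 and Ccl12, the CCR4 ligands rose: Ccl22 from 108 and 82.9 to 404 and 457 CPM (2.15 ± 0.23, adjusted p = 5.85e-08) and Ccl17 from 19.0 and 14.7 to 76.9 and 171 CPM (2.83 ± 0.36, adjusted p = 1.56e-06). Ccl8, a monocyte attractant, went from 54.1 and 58.9 to 244 and 375 CPM (2.46 ± 0.24, adjusted p = 2.23e-08). The 2 falls were in the inflammatory chemokines Ccl3 and Ccl4, at −2.27 and −2.72. In the DKO libraries described near the end these 2 genes stood at 2.14 and 2.04. Ccl3 lost its call without resting replicate 1 (adjusted p = 0.101), resting replicate 2 (0.0629) or activated replicate 2 (0.147). Both lie outside the rule for named genes and were chosen after their values were seen.

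Of 21 tested chemokine, lipid and homing receptors 3 rose [1, 2, 2, 1] and 6 fell [5, 6, 4, 5], with a median of −0.13. S1pr1, the receptor that lets lymphocytes leave lymph nodes (ENSMUSG00000045092.8, chromosome 3, 115710433 to 115715072), went from 195 and 174 CPM to 41.7 and 37.9 CPM (−2.22 ± 0.26, adjusted p = 4.32e-07). Its relative S1pr4 fell by 1.56 ± 0.24. Cxcr4, the receptor of CXCL12, went from 126 and 147 to 28.7 and 45.2 CPM (−1.87 ± 0.30, adjusted p = 3.83e-05), and Ccr7, which guides cells to the T zone, from 295 and 265 to 102 and 142 CPM (−1.20 ± 0.22, adjusted p = 2.93e-04). Gpr183, the oxysterol receptor EBI2 that positions B cells and DCs at follicle borders, went the other way, from 254 and 258 to 527 and 630 CPM (1.18 ± 0.19, adjusted p = 5.40e-05).

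Adhesion molecules fell more often than they rose. Of 32 tested members 3 rose [2, 3, 2, 1] and 11 fell [6, 7, 3, 5], with a median of −0.50. The LFA-1 ligands moved apart. Icam1 (ENSMUSG00000037405.8, chromosome 9, 21015985 to 21028817) went from 168 and 123 CPM to 407 and 432 CPM (1.51 ± 0.22, adjusted p = 8.65e-06). Icam2 (ENSMUSG00000001029.15, chromosome 11, 106377656 to 106388075) went from 199.5 and 219 CPM to 66.5 and 94.1 CPM (−1.37 ± 0.26, adjusted p = 3.06e-04). The adhesion molecule Cd2 went from 501 and 516 to 206 and 278 CPM (−1.07 ± 0.20, adjusted p = 3.17e-04). The tetraspanin Cd82 stood at 0.88 ± 0.19 (adjusted p = 0.00185) and lost its call without activated replicate 2 (adjusted p = 0.0526).

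Cytokines that rose included Ebi3, which pairs with other chains to form IL-27 or IL-35, from 36.5 and 22.7 to 149 and 144 CPM (2.24 ± 0.30, adjusted p = 3.26e-06). The macrophage migration inhibitory factor Mif rose by 1.49 ± 0.23 and progranulin (Grn) by 1.39 ± 0.22. In all 7 of 18 tested cytokines rose [5, 4, 4, 5] and 1 fell [0, 0, 0, 0], while of 30 tested cytokine receptors 2 rose [1, 1, 2, 1] and 5 fell [1, 2, 1, 0]. Of the receptors 6.67% rose and 16.7% fell, against 8.44% and 5.92% of all tested genes. Tnf was at 56.9 and 114 CPM at rest and at 149 and 177 CPM after activation (0.99 ± 0.27, adjusted p = 0.0119). Its call ended without resting replicate 1 (0.50, adjusted p = 0.400), without activated replicate 2 (adjusted p = 0.146) and under library totals (adjusted p = 0.0583), and its change was 1.5 without resting replicate 2.

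Complement and myeloid genes rose together. Of 11 tested complement components, receptors and regulators 6 rose [6, 6, 6, 6] and 1 fell [1, 1, 1, 1], with a median of 1.67. The 6 were Cfp, Cfb, C3, C1qa, C1qb and C1qc, and the member that fell was the inhibitor Cd55. C3, the central component (ENSMUSG00000024164.15, chromosome 17, 57203970 to 57228136), went from 17.6 and 9.36 CPM to 124 and 121 CPM (adjusted p = 2.95e-08). C1qb, a chain of the first component made by macrophages, went from 97.0 and 92.3 to 392 and 412 CPM (2.08 ± 0.25, adjusted p = 3.96e-07). Of 28 tested pattern recognition and uptake receptors 7 rose [3, 4, 4, 4] and 1 fell [0, 0, 0, 0], among them the scavenger receptors Marco, from 37.2 and 65.6 to 310 and 311 CPM (2.66 ± 0.30, adjusted p = 2.32e-07), and Cd36, from 6.32 and 2.68 to 49.5 and 30.6 CPM (2.97 ± 0.53, adjusted p = 1.75e-04).

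Of 23 tested monocyte and macrophage genes 12 rose [8, 10, 11, 9] and 0 fell, with a median of 1.59, and their share of UMIs went from 0.400% and 0.345% to 0.709% and 0.616%. Lyz2, lysozyme of myeloid cells (ENSMUSG00000069516.8, chromosome 10, 117277331 to 117282321), went from 813 and 726 to 2748 and 2050 CPM (1.64 ± 0.18, adjusted p = 1.13e-07), and Lyz1 from 39.3 and 68.2 to 387 and 308 CPM (2.75 ± 0.25, adjusted p = 9.64e-09). These paralogs may share reads. Adgre1, the macrophage antigen F4/80, had 8, 6, 5 and 0 UMIs and was not tested, and the neutrophil gene S100a9 had 0, 0, 1 and 3 UMIs. Of 22 tested Fc receptors and ITAM adaptors 4 rose [2, 5, 3, 4] and 6 fell [3, 4, 3, 4]. Fcer2a, the IgE receptor CD23 of B cells, went from 941 and 1153 to 2383 and 2306 CPM (1.17 ± 0.17, adjusted p = 1.54e-05), while the IgM receptor Fcmr went from 1312 and 1607 to 564 and 749 CPM (−1.15 ± 0.19, adjusted p = 7.51e-05).

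B cell genes moved unevenly. Of 24 tested members 2 rose [1, 1, 1, 2] and 9 fell [6, 8, 8, 7], with a median of −0.52. The lineage markers Ms4a1, Cd79b and Cd79a stood at 0.27, −0.42 and −0.67 and were not called. After Vpreb3, the falls were led by Fcrla, an intracellular Fc receptor-like protein, from 551 and 538 to 162 and 171 CPM (−1.71 ± 0.20, adjusted p = 4.57e-07), and by the exchange factor Ralgps2, from 367 and 399 to 126 and 103 CPM (−1.74 ± 0.22, adjusted p = 9.81e-07). The rises were Fcer2a and the transcription factor Spib, whose call was lost in 4 of 11 alternatives (0.67 ± 0.18, adjusted p from 0.00113 to 0.133).

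T cell genes were lower in the activated libraries. Of 26 tested members 0 rose and 12 fell [5, 3, 1, 11], none had a positive change, and the median was −0.83 in WT against −0.10 in DKO. Bcl11b, a T cell transcription factor, went from 132 and 95 to 43.0 and 44.0 CPM (−1.40 ± 0.30, adjusted p = 0.00150, and 0.0716 without resting replicate 1). Cd3e was at 73.1, 116, 35.2 and 55.0 CPM (adjusted p = 0.0261, and 0.0504 to 0.295 without resting replicate 2 or either activated replicate) and Lck at 428, 524, 216 and 323 CPM. The activated libraries also differed from each other, with a summed share of 0.175% and 0.271%, and 1 call was left without activated replicate 1.

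Genes of lymphocyte quiescence fell as a group. Of 26 tested members 2 rose [0, 0, 0, 0] and 15 fell [10, 14, 10, 11], with a median of −0.94, and under library totals 0 rose and 17 fell. Their share of UMIs was 0.614% and 0.567% at rest and 0.264% and 0.263% after activation. Next to Klf2 and S1pr1, Tsc22d3, a glucocorticoid-induced leucine zipper protein, went from 435 and 284 to 95.2 and 85.6 CPM (−2.0 ± 0.24, adjusted p = 6.92e-07). Ypel3 went from 465 and 519 to 125 and 130 CPM (−1.95 ± 0.21, adjusted p = 8.43e-08) and Rasa3, a GTPase-activating protein for RAS and RAP1, from 155 and 146 to 44.3 and 25.7 CPM (−2.11 ± 0.28, adjusted p = 3.41e-06). Of 47 tested lineage transcription factors 1 rose [0, 0, 0, 1] and 10 fell [7, 7, 7, 5]. They included Bach2, a repressor of plasma cell differentiation, from 259 and 253 to 124 and 91.7 CPM (−1.25 ± 0.22, adjusted p = 1.69e-04), Hhex at −1.96 ± 0.27, Lmo2 at −1.32 ± 0.24 and Foxp1 at −1.07 ± 0.20.

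Immediate early genes, which cells transcribe within minutes of a stimulus, were lower after activation. Of 29 tested members 1 rose [0, 1, 0, 0] and 13 fell [3, 14, 6, 7], with a median of −0.86. Resting replicate 1 held more of these transcripts than resting replicate 2, at 0.690% against 0.510% of UMIs, and activated libraries held 0.332% and 0.315%. Zfp36, an RNA-binding protein that destabilises cytokine transcripts, went from 308 and 272 to 83.4 and 96.6 CPM (−1.69 ± 0.22, adjusted p = 2.53e-06). Fosb had 149 and 6 UMIs at rest and 1 and 0 after activation, and its call ended without resting replicate 1 (adjusted p = 0.275).

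Genes of protein synthesis rose in large numbers and by small steps. Of 74 tested cytosolic ribosomal proteins 43 rose [17, 47, 32, 18] and 0 fell, 72 had a positive change, and the median was 0.65; with library totals 28 rose and the median was 0.41. Their share of all UMIs went from 8.63% and 10.6% to 13.4% and 15.2%, so the libraries within a group also differed. Rplp1, a protein of the ribosomal stalk, went from 5082 and 6577 to 10751 and 13393 CPM (1.05 ± 0.17, adjusted p = 3.31e-05), Rpl41 rose by 1.20 ± 0.17 and Rps2 by 1.32 ± 0.19. Reads of ribosomal protein genes can be shared with their processed pseudogenes, which makes single values uncertain. Of 71 tested genes of ribosome biogenesis 22 rose [4, 12, 8, 9] and 0 fell, with Nhp2, a snoRNP core protein, going from 162 and 203 to 494 and 458 CPM (1.39 ± 0.21, adjusted p = 1.34e-05). Of 63 tested translation factors 11 rose [6, 7, 6, 6] and 1 fell [0, 0, 0, 0], led by Eif5a at 1.20 ± 0.17.

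The same direction was seen in protein folding and degradation. Of 36 tested constitutive proteasome subunits 17 rose [5, 7, 4, 7] and 0 fell, with a median of 0.60, and of 45 tested chaperones 16 rose [5, 15, 8, 6] and 0 fell, with a median of 0.57. Pomp, which assists proteasome assembly, went from 286 and 294 to 708 and 691 CPM (1.27 ± 0.19, adjusted p = 1.21e-05). Hsp90ab1 went from 554 and 586 to 1384 and 1369 CPM (1.27 ± 0.18, adjusted p = 9.75e-06), and the chaperonin subunit Cct3 from 232 and 250 to 550 and 476 CPM (1.09 ± 0.19, adjusted p = 1.69e-04). Of 49 tested genes of translocation and folding in the endoplasmic reticulum 10 rose [3, 5, 4, 3] and 0 fell, whereas with library totals 4 rose and 3 fell. Ssr4, a subunit of the translocon-associated complex, rose by 1.19 ± 0.20 and Sec61b, of the translocon itself, by 1.13 ± 0.20.

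**Figure D3:**
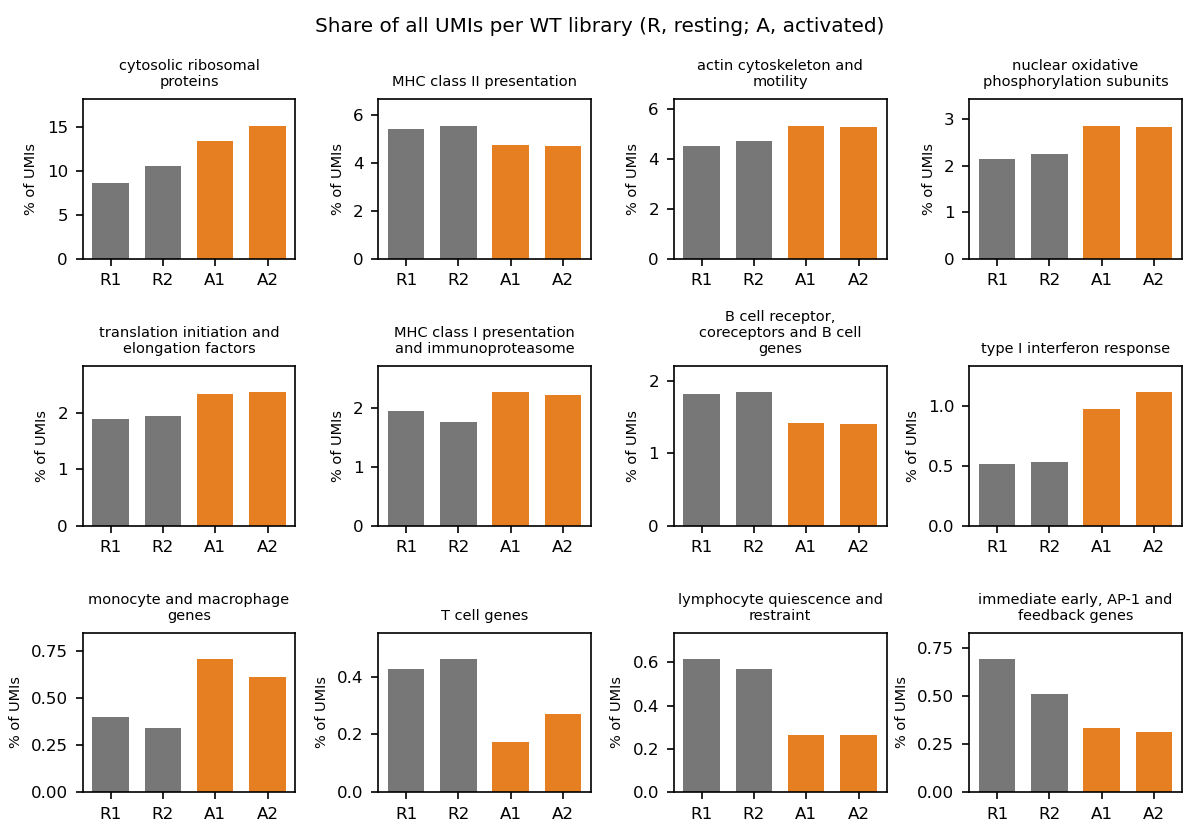
Share of all UMIs (%) held by 12 gene lists in each WT library, with R1 and R2 the resting and A1 and A2 the activated libraries; each panel has its own axis from 0. Shares of ribosomal proteins, oxidative phosphorylation, interferon response and myeloid genes were higher in both activated libraries, and those of MHC class II, B cell, T cell, quiescence and immediate early genes lower, with MHC class II lower as a share of UMIs and not in the TMM-scaled sum.

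Subunits of oxidative phosphorylation and mitochondrial ribosomal proteins rose as well. Of 76 tested subunits of oxidative phosphorylation 38 rose [10, 27, 16, 14] and 1 fell [0, 1, 0, 1], with a median of 0.60, and with library totals 20 rose and 1 fell. Cox6b1, of cytochrome c oxidase, went from 391 and 403 to 782 and 808 CPM (1.0 ± 0.19, adjusted p = 4.22e-04), Atp5j2, of the ATP synthase, rose by 0.98 ± 0.19 and Ndufb2, of complex I, by 1.22 ± 0.23. Of 73 tested mitochondrial ribosomal proteins 25 rose [6, 11, 7, 10] and 0 fell, led by Mrpl52, from 244 and 292 to 564 and 686 CPM (1.23 ± 0.20, adjusted p = 4.20e-05). Genes encoded on the mitochondrial genome were not analysed here. Of 25 tested genes of the tricarboxylic acid cycle 2 rose [1, 0, 1, 0] and 0 fell, a share of 8.00% against 8.44% of all tested genes, and under library totals none was called.

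Glycolysis, sterol and redox genes are given by pathway. Of 19 tested glycolysis genes 5 rose [2, 3, 1, 3] and 1 fell [0, 0, 1, 1], with triosephosphate isomerase (Tpi1) going from 72.4 and 72.2 to 189 and 188 CPM (1.38 ± 0.23, adjusted p = 7.93e-05). Of 37 tested genes of cholesterol and fatty acid synthesis and export 4 rose [4, 3, 3, 3] and 4 fell [2, 5, 3, 3], or 10.8% in each direction. The synthetic enzymes Mvd, from 14.8 and 16.1 to 106 and 55.0 CPM (2.38 ± 0.38, adjusted p = 3.83e-05), and Fdps, from 34.4 and 36.1 to 111 and 110.0 CPM (1.65 ± 0.29, adjusted p = 1.48e-04), rose. Mylip and the exporter Abca1, both known targets of liver X receptors, fell, while the receptor gene Nr1h3 itself went from 35.1 and 12 to 112 and 112 CPM (2.11 ± 0.34, and 3.19 without resting replicate 1). Of 35 tested redox genes 10 rose [5, 7, 6, 4] and 1 fell [1, 1, 1, 2]. Thioredoxin (Txn1) rose by 1.23 ± 0.22 and peroxiredoxin Prdx5 by 0.98 ± 0.19, and Txnip, which binds and inhibits thioredoxin, went from 499.5 and 578 to 239.8 and 216 CPM (−1.24 ± 0.20, adjusted p = 3.51e-05).

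Some genes of DNA replication rose. In the mitosis list 11.5% of tested members were called higher and 3.85% lower, near the 8.44% and 5.92% of all tested genes. Of 45 tested genes of replication and nucleotide supply 10 rose [3, 3, 2, 5] and 0 fell, with a median of 0.75; with library totals 6 rose and 3 fell. Mcm3, of the replicative helicase, went from 56.2 and 38.8 to 156 and 127 CPM (1.54 ± 0.28, adjusted p = 2.01e-04). Mcm5, of the same helicase, went from 76.6 and 78.9 to 142 and 165 CPM (0.98 ± 0.24, adjusted p = 0.00448), with adjusted p of 0.0769 without resting replicate 1 and 0.0873 without activated replicate 2. Of 26 tested mitosis genes 3 rose [4, 2, 3, 3] and 1 fell [1, 1, 1, 1]. The rises were the tubulins Tuba1b, from 535 and 509.7 to 1382 and 1299.6 CPM (1.36 ± 0.19, adjusted p = 6.68e-06), and Tubb5 at 1.19 ± 0.19, and Cks1b, a partner of cyclin-dependent kinases, at 1.98 ± 0.44, whose call was lost without resting replicate 2 (adjusted p = 0.0510). The difference between the replication and mitosis lists was not tested.

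The promoter of Mcm5 (chr8:75109259-75109558, plus strand) is printed as the example of an E2F site, searched as TTTNGCGC on both strands, with 2 overlapping matches on opposite strands that begin 153 and 149 bases before the start:
Mcm5: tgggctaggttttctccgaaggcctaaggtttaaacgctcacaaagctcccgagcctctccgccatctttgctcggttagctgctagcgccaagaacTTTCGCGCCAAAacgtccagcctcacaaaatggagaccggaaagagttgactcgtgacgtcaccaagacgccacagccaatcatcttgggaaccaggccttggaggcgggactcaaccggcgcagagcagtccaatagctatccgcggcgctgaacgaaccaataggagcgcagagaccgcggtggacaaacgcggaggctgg
Of 47 promoters of the replication list 23.4% held the motif, against 2.70% of all 8510, 4.37% of those of genes called higher and 1.31% of those called lower. Each of the 10 motifs was searched in the same windows. CCGGAAGT, the ETS core, was in 9.50% of all promoters, 10.2% of those called higher and 2.80% of those called lower, and in 30.9% of 68 promoters of ribosome biogenesis genes. TGANTCA (AP-1) was in 4.79%, 9.04% and 5.41%, the core promoter hexamer TATAAA in 6.65%, 10.5% and 8.40%, and TTCNNNGAA (GAS) in 7.04%, 9.77% and 6.90% of the same 3 sets. TGACGTCA (CRE) was in 3.21%, 3.35% and 1.49%, the NRF1 consensus in 2.34%, 2.77% and 1.12%, and a sterol regulatory element in 0.106%, 0.146% and 0% of them. Genes with promoters numbered 6696 of the 8616 tested, some with more than 1 start, and no test was made of these shares.

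**Figure D4:**
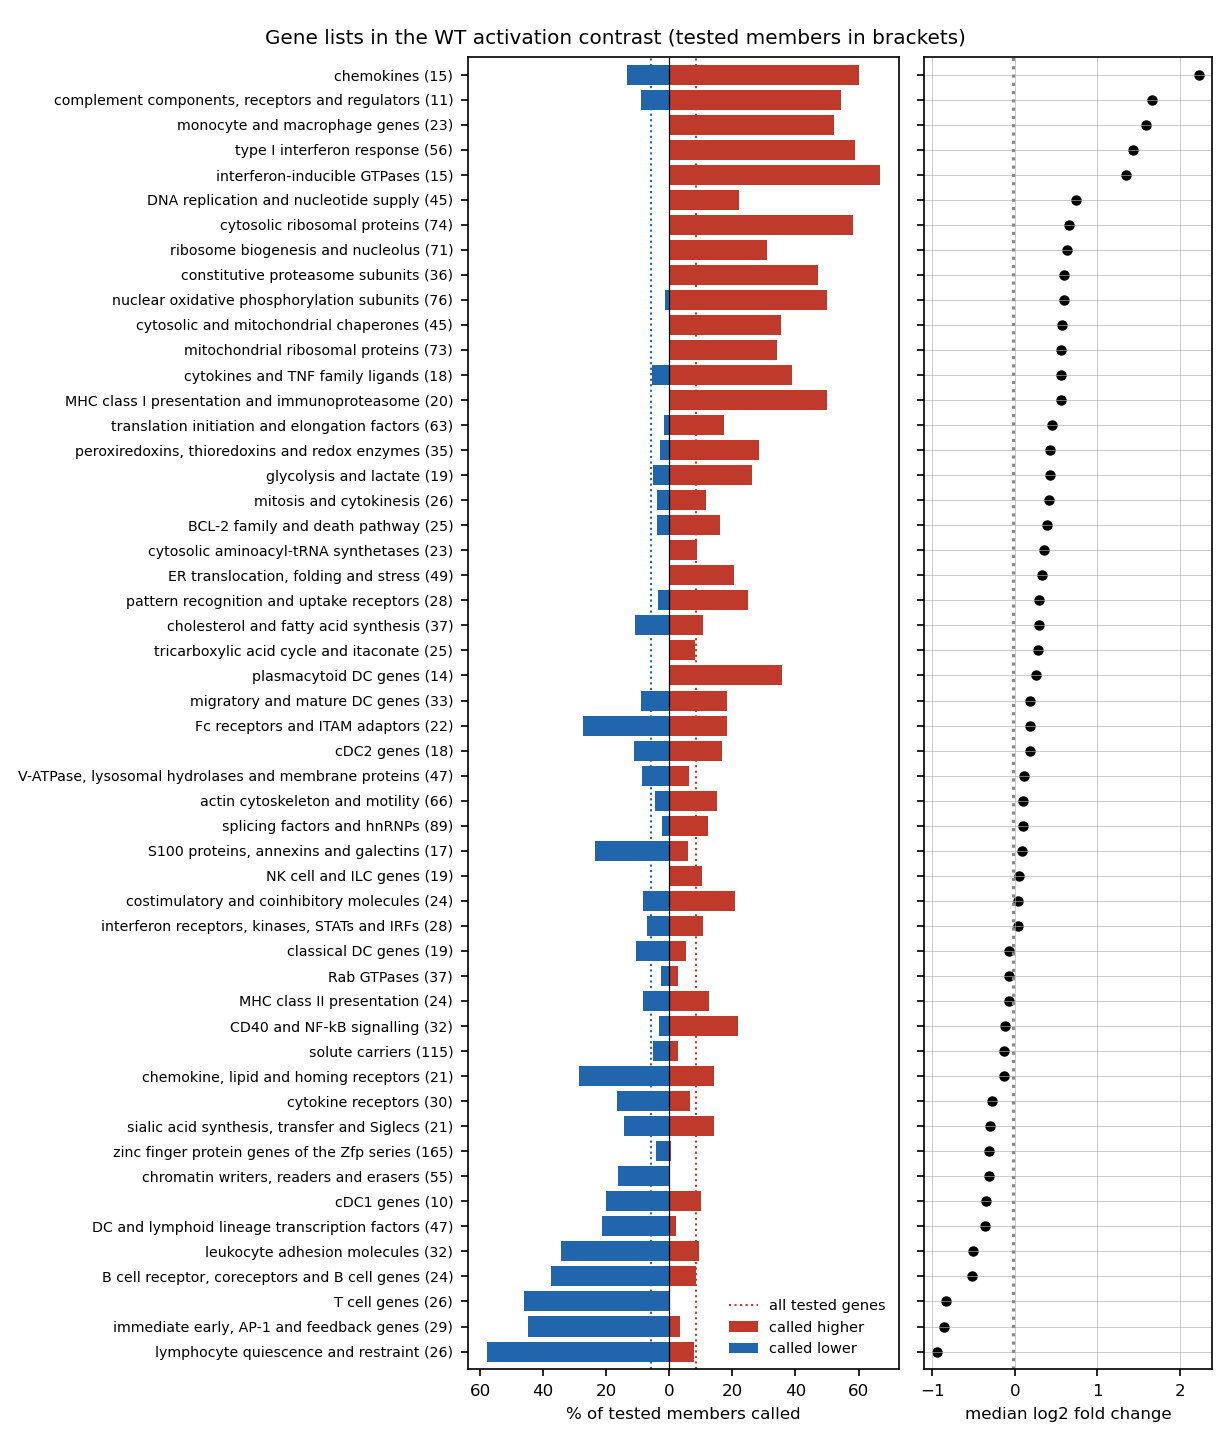
Share of tested members called higher (red, to the right) or lower (blue, to the left) and median log2 fold change, WT activated over WT resting, of each gene list with 10 or more tested members; dotted lines mark the values of all tested genes (8.44% higher, 5.92% lower, median −0.02). Chemokines, complement, myeloid and interferon-response lists have the highest medians and quiescence, immediate early and T cell lists the lowest.

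Cytoskeletal genes contributed some of the most abundant rises. Actb, cytoplasmic actin, went from 4364 and 5754 to 10640 and 11888 CPM (1.16 ± 0.16, adjusted p = 8.29e-06), Marcks rose by 1.82 ± 0.23 and the GTPase Rac2 by 0.87 ± 0.16. Of 66 tested genes of actin and motility 10 rose [5, 6, 5, 6] and 3 fell [1, 2, 2, 1], but with library totals 6 rose and 10 fell and the median changed from 0.10 to −0.14. The kinase gene Stk17b went from 639 and 626 to 342 and 270.2 CPM (−1.05 ± 0.20, adjusted p = 3.09e-04).

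Markers of the other cell types that the sort could hold are given beside these results. Of all tested genes 8.44% were called higher and 5.92% lower. The shares called higher of classical DC (5.26%), cDC1 (10.0%), NK and ILC (10.5%) and plasma cell genes (11.1%) were near that. Those of cDC2 (16.7%) and plasmacytoid DC genes (35.7%) were above it. Of 19 tested classical DC genes 1 rose [0, 0, 0, 1] and 2 fell [1, 2, 1, 1], and the summed share of this list, mostly from MHC class II genes, was 4.72% and 4.90% at rest and 4.10% and 3.96% after activation. Of 10 tested cDC1 genes 1 rose [1, 0, 0, 0] and 2 fell [2, 1, 1, 1], and of 18 tested cDC2 genes 3 rose [3, 2, 2, 3] and 2 fell [1, 1, 1, 2]. Of 14 tested plasmacytoid DC genes 5 rose [2, 2, 4, 2] and 0 fell, including Bst2, also an interferon-stimulated gene, from 162 and 173 to 419.7 and 664 CPM (1.70 ± 0.26, adjusted p = 2.81e-05). The receptor Siglech, which defines plasmacytoid DCs, was at 21.1, 9.36, 9.12 and 15.9 CPM and was not called. Of 19 tested NK and ILC genes 2 rose [2, 0, 1, 2] and 0 fell, and of 9 tested plasma cell genes 1 rose [2, 0, 0, 0] and 3 fell [1, 2, 1, 0]. The lists of granulocytes, of erythroid cells and platelets and of stroma had 2, 1 and 3 tested members and 0 calls, with summed shares of at most 0.0171% of UMIs in a WT library. Ptprc, which encodes the sort marker CD45, was at 925, 916, 517 and 440.1 CPM (−0.94, adjusted p = 0.00166, and 0.0661 without activated replicate 2) and was picked after its values were seen.

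The same contrast was available in the DKO libraries, which share no sample with it. The genotype labels were checked for Icam1 only, at 9.49 and 13.6 CPM in resting and 38.5 and 35.8 CPM in activated DKO libraries. These levels were below those of WT but not absent, and they were higher after activation. Levels of Icam2 in DKO are not given here. Of the 1237 genes called in WT 1205 (97.4%) had the same sign in DKO. The same share over all tested genes is not given here, so how far 97.4% lies above it cannot be read. The changes of Cxcl10, Cfp, Isg15, Vpreb3 and Klf2 were 4.68, 4.21, 4.09, −3.18 and −2.55 there. The difference between the genotypes in the response, WT minus DKO, was tested for each gene, and 0 of 8616 were called by edgeR, 0 by DESeq2 and 0 by limma-voom. At an unadjusted p under 0.05 there were 397 (4.61%), 165 and 368 genes, and the smallest adjusted p in edgeR was 0.156, shared by Cfb and Ccl4, whose differences were −1.88 and −4.76. For Cd40 the difference was 0.72 ± 0.27 (adjusted p = 0.997) and for Lyz2 −1.16 ± 0.25 (adjusted p = 0.181). Without resting replicate 2 of WT 1 gene was called, Jchain, whose WT UMIs were 260, 0, 148 and 65, and without activated replicate 1 of WT 1 gene, Rpl35. Misses of the threshold do not show that the responses were alike. Medians of gene lists were not tested between the genotypes. The T cell list, at −0.83 in WT and −0.10 in DKO, was not alone in differing, with the mitosis list at 0.42 and 1.65.

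**Figure D5:**
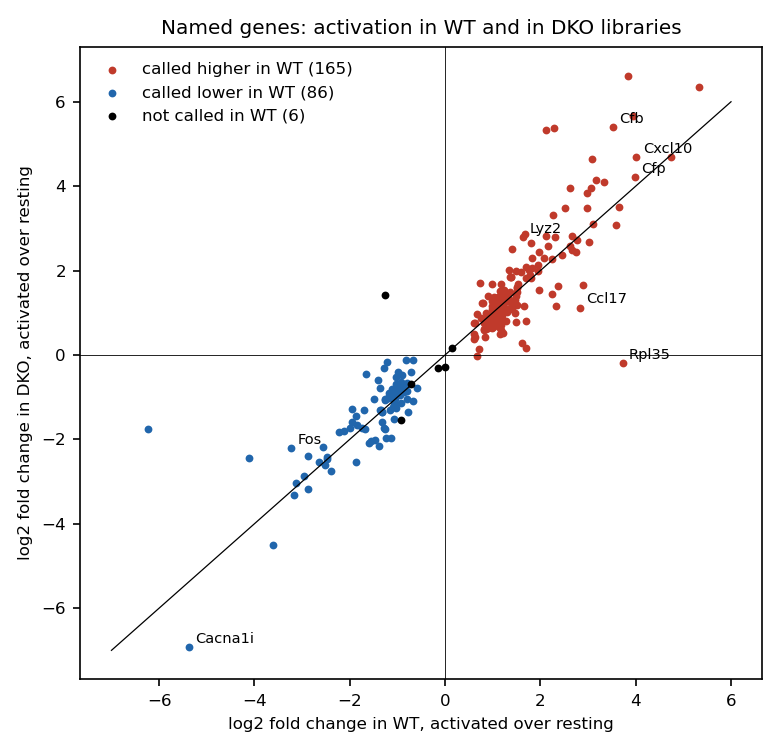
Log2 fold change of activated over resting libraries in DKO (y axis) against WT (x axis) for each named gene, coloured by its call in WT; the diagonal marks equal change. Points broadly follow the diagonal, with 165 named genes called higher and 86 called lower in WT. Rpl35 lies far below the diagonal at 3.73 in WT and −0.19 in DKO, and Cfb and Lyz2 lie above it.

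The authors' deposited table holds their own comparison of WT activated with WT resting cells. It gives adjusted p-values for 7384 genes, of which 811 are under 0.05, 520 higher and 291 lower. Of these, 804 were also called by edgeR here, and all 804 had the same sign. That is no separate support, as both comparisons rest on the same libraries.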

How the data were processed

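The authors deposited a table of UMI counts per gene for 8 libraries, whole numbers and not normalized per the file headers and values, with every gene reaching at least 6 UMIs in some library. Per the submitters' processing notes, bcl2fastq 2.17.1.14, cutadapt 1.8.3, TopHat2, HTSeq, DESeq2 and the genome build mm10 were used. The sources used here state neither the annotation nor the strand setting nor how UMIs were collapsed, so overlapping and antisense genes may share reads. The same deposited table holds the authors' log2 fold changes and adjusted p-values, used only where they are named. Another 16 columns of per-sample values were not used.

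Counts were fitted with edgeR 4.0.16 in R 4.3.3 (TMM, filterByExpr by group, quasi-likelihood test) over all 8 libraries, so that 4 groups of 2 shared an estimate of spread, with Benjamini-Hochberg adjustment over 8616 genes; 1796 genes were not tested. Standard errors are the fold change divided by the root of F. The fit was tested on simulated data. DESeq2 1.42.0 and limma 3.58.1 (voom with quality weights) were alternatives, with other scaling, filters, only WT libraries and leaving out each WT library. Ratios near the floor carry exact binomial intervals.

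Named genes were the 12 called rises and 12 called falls of greatest size where mean log2 CPM reached 5, up to 5 called members by p in each of 57 gene lists with tested members (58 were listed), or the most abundant where none was called, the 5 smallest p, the 10 most abundant genes, Icam1, Icam2 and Cd40, up to 5 genotype differences, and up to 5 called genes per direction at or under 3 UMIs in a group. Marker genes given for the label check, and a few others marked as such, lie outside this rule. Members, lists and motifs were chosen with earlier results of these data known. Gene positions are those of mm10 annotation and promoters those of RefSeq GRCm38.p6.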

Additional observations from a re-analysis of the deposited data

How the results depend on the processing

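Among the 251 named genes that were called, 145 kept their call in each of the 11 alternatives that gave them an adjusted p, and 0 changed sign. For Ccl7, Clec4e, Gda, Snai1 and Stac2, all near the floor in 1 group, only 10 alternatives gave an adjusted p. The DESeq2 Wald test called 806 genes, 296 of them lower, and limma-voom 1871, 1093 higher and 778 lower. Library totals, added after seeing the data, gave 418 higher and 1001 lower. Leaving out 1 WT library gave 504 to 748 called genes, 298 to 446 higher, 195 to 302 lower, 436 to 587 with 2-fold or larger change, and 0 to 1 genotype differences. The fewer samples of these fits lower the number of calls, and the lone library is assumed to vary like the other groups. Other filters, DESeq2 size factors and a fit of the 4 WT libraries alone, which has no genotype difference, kept each count of changed genes within 1.5 times. The depth of 711254 UMIs in resting replicate 2 limits genes near 3 UMIs, 4.01 CPM there. No paired analysis was possible because the replicate numbers were given in accession order and pair no samples.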

Other observations

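The gene groups not described above are read against the shares of all tested genes, 8.44% called higher and 5.92% lower. Of 55 tested chromatin regulators 0 rose and 9 fell [4, 5, 3, 3], with a median change of −0.32 against −0.02 over all tested genes and the bracketed counts leaving out libraries in the order given before. Cbx7, a Polycomb protein, went from 274 and 301 to 108 and 100.2 CPM (−1.46 ± 0.22, adjusted p = 2.40e-05). Of 165 tested Zfp zinc finger genes 1 rose [0, 1, 1, 1] and 7 fell [4, 4, 3, 3], shares below those of all tested genes, with Zfp318, which takes part in IgD splicing, going from 183 and 181 to 61.3 and 79.5 CPM (−1.36 ± 0.26, adjusted p = 4.13e-04). Of 89 tested splicing genes 11 rose [2, 7, 4, 5] and 2 fell [0, 1, 0, 1], with a median of 0.10 that was −0.14 under library totals. The core Sm proteins Snrpd1, from 77.3 and 65.6 to 209 and 204 CPM (1.51 ± 0.24, adjusted p = 2.85e-05), and Snrpd2, at 1.10 ± 0.20, were among the rises.

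Of 17 tested S100, annexin and galectin genes 1 rose [1, 1, 1, 0] and 4 fell [3, 3, 3, 3], and the median of 0.09 was −0.16 under library totals. S100a4 went from 1068 and 1547 to 706 and 674 CPM (−0.92 ± 0.19, adjusted p = 8.14e-04), S100a10 fell by 1.02 ± 0.20 and Anxa6 by 1.03 ± 0.21. Of 8 tested Gimap GTPases of lymphocytes 0 rose and 3 fell [0, 2, 1, 1]. Gimap6 stood at 1108, 967, 630 and 571 CPM (−0.79 ± 0.18, adjusted p = 0.00284) and was not called without resting replicate 1 or activated replicate 2. Of 115 tested solute carriers 3 rose [1, 2, 2, 0] and 6 fell [1, 3, 4, 0], also below them. Of 23 tested genes of tRNA charging 2 rose [1, 2, 2, 2] and 0 fell, a share of rises near that of all tested genes, including Aimp2, a scaffold of the synthetase complex, from 76.6 and 72.2 to 160.3 and 167 CPM (1.13 ± 0.24, adjusted p = 0.00129). Of 47 tested lysosome genes 3 rose [1, 2, 1, 1] and 4 fell [0, 2, 0, 1], of 21 tested sialic acid genes 3 rose [0, 2, 1, 0] and 3 fell [2, 3, 3, 2], and of 37 tested Rab GTPases 1 rose [0, 1, 1, 1] and 1 fell [0, 0, 0, 0].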
